A study of Mus musculus with 2 samples.

Results

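The 10 genes described here encode regulators of alternative splicing. They are *Ptbp1*, *Ptbp2*, *Nova1*, *Nova2*, *Rbfox2*, *Srrm4*, *Elavl2*, *Celf4*, *Mbnl1* and *Mbnl2*, and they were taken by symbol from the 29311 genes that both expression tables list. All 10 were found. The series compares RNA of 2 libraries, 1 of wild-type ES cells of the E14 strain and 1 of forebrain cells dissected from wild-type B6CBAF1/J embryos at E10.5, hereafter called forebrain. Total RNA was depleted of ribosomal RNA, and 1 value per gene and library was deposited under the name RPKM (reads per kilobase of exon, here with a scaling of its own per library). Per the study's methods, forebrain RNA came from single embryos and ES cell RNA from a counted number of cultured cells. Neither library has a replicate. The 2 sources differ in cell type, in genetic background and in culture against dissection, and these differences cannot be told apart. In bulk RNA, fewer cells that express a gene and less RNA per cell cannot be told apart either.

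Alternative splicing is set by RNA-binding proteins that recognise short motifs in or beside an exon and help or hinder the spliceosome there. *Ptbp1* encodes the polypyrimidine tract binding protein PTB, which keeps many neuronal exons out of mRNA in non-neuronal cells, and *Ptbp2* encodes its neural paralog. Neural development is known for a switch from the first to the second, followed by regulators of the *Nova*, *Elavl*, *Celf*, *Rbfox* and *Srrm4* type, whereas *Mbnl* proteins act in many differentiated tissues.

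The pair *Ptbp1* and *Ptbp2* is also linked through a short exon. It is a textbook target of PTB, and when it is skipped the reading frame shifts and the transcript is degraded. The exon is shown for both genes (capitals) with 80 bases of the intron before it and 20 bases of the intron after it (lower case), 5′ to 3′ on the strand of the gene and read from the NCBIM37 genome. For *Ptbp1* the window is chr10:79324679-79324812 (plus strand) and for *Ptbp2* it is chr3:119427510-119427643 (minus strand).

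Ptbp1 exon: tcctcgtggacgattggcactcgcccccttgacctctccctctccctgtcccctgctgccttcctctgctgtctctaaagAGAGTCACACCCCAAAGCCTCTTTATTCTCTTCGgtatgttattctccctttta

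Ptbp2 exon: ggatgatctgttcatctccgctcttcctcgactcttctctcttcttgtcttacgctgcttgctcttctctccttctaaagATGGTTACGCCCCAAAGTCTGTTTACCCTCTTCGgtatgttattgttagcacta

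Both exons are 34 bases long and carry the same base at 26 positions. The 100 bases before the *Ptbp2* exon held the letters TCTT, a core of known PTB binding motifs, 6 times, counted on the transcribed strand and with overlaps allowed. As many copies were found before 0.241% of 212365 exons of protein-coding transcripts. Before the *Ptbp1* exon there was 1 copy, and 63.6% of exons had at least 1. Copies inside the exons themselves, which both hold TCTT, were not counted. The longer motif CTCTCT, which can overlap TCTT, was found once before the *Ptbp2* exon and not before that of *Ptbp1*, and 10.8% of exons had it. In their content of C and T the 2 windows were alike, with 71 of 100 bases for *Ptbp1* and 73 for *Ptbp2*. At least as many were found before 2.59% and 1.66% of exons. In the annotation of the tables' build, 5 of the 9 *Ptbp1* transcripts that span this exon contain it. Both transcripts of the nonsense-mediated decay type lack it, but so do a protein-coding transcript and an intron-retaining transcript. *Ptbp2* has 1 annotated transcript, with the exon. The deposited values are sums per gene, so inclusion of the exon was not measured.

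*Ptbp2* differed more between the libraries than any other of the 10 genes. *Ptbp2* (ENSMUSG00000028134, chromosome 3, 119421660 to 119486306, NCBIM37) had an RPKM of 237.53 in ES cells and 4427.2 in forebrain. forebrain was 18.6-fold higher, with a 95% interval of 17.3 to 20.2 (exact interval on 654 and 18182 inferred reads). Here and in what follows, intervals cover the counting of reads only, since there are no replicates. *Ptbp2* was at percentile 64.3 of the listed protein-coding genes in ES cells and at percentile 98.4 in forebrain.

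*Ptbp1* was high in both libraries. *Ptbp1* (ENSMUSG00000006498, chromosome 10, 79317172 to 79327516) had an RPKM of 2179.39 in ES cells and 1475.55 in forebrain. ES cells were 1.48-fold higher (1.43 to 1.52), and the intervals of the levels did not overlap, but the difference stayed under 2-fold. On the percentile scale it was at 94.4 in ES cells and 92.1 in forebrain. *Ptbp1* and *Ptbp2* therefore differed in opposite directions, and by very different amounts.

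The ratio of the 2 paralogs within a library does not depend on how libraries are scaled to each other. Per exon length, *Ptbp2* had 0.109 times the level of *Ptbp1* in ES cells (0.1 to 0.118) and 3.0 times its level in forebrain (2.92 to 3.08). The ratio was thus 27.5-fold higher in forebrain. The remaining paralog, *Ptbp3* (listed as *Rod1*), followed *Ptbp1* and not *Ptbp2*, with an RPKM of 1464.61 in ES cells and 1094.55 in forebrain. Of the summed RPKM of the 3 genes, *Ptbp1* held 56.1% in ES cells and 21.1% in forebrain, and *Ptbp2* held 6.12% and 63.3%. These shares depend on the annotated exon lengths, which were 4748 bases for *Ptbp1*, 3364 for *Ptbp2* and 7480 for *Ptbp3*. In the same order, inferred reads were 8476, 654 and 8973 in ES cells and 8553, 18182 and 9995 in forebrain. The exons of *Ptbp1* in the annotation include those of intron-retaining transcripts. With the length of the longest coding transcript in their place, an alternative chosen once the values were known, the ratio was 0.0727 in ES cells and 2.0 in forebrain.

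**Figure D1:**
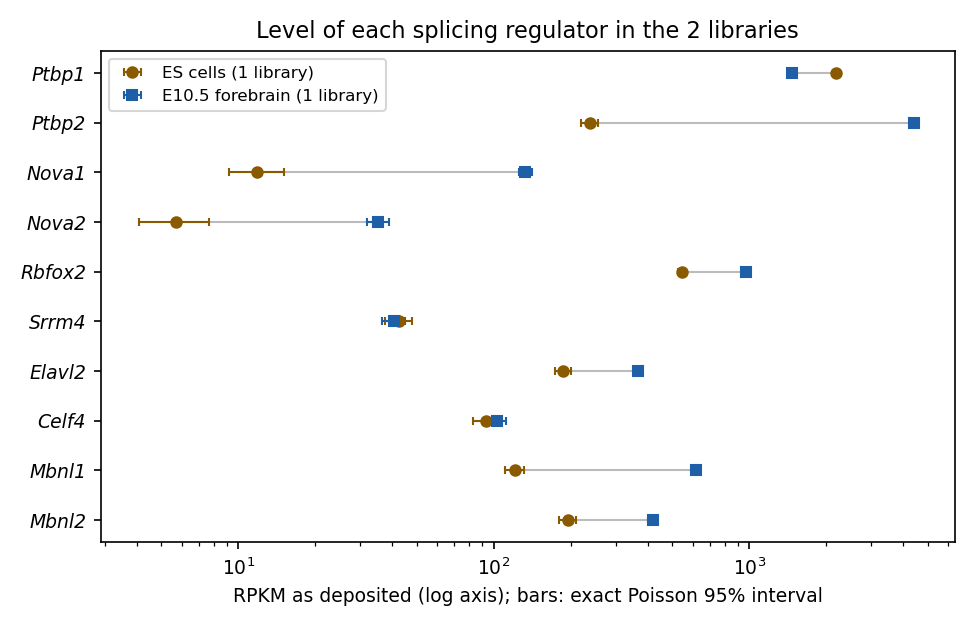
Deposited RPKM (log axis) of the 10 splicing regulators in the ES cell library (circles) and the forebrain library (squares), with exact Poisson 95% intervals of the inferred reads as bars. *Ptbp2* moved from 237.53 to 4427.2 and passed *Ptbp1*, while the intervals of *Srrm4* and of *Celf4* overlapped between the libraries.

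*Nova1* and *Nova2* encode KH-domain proteins that bind clusters of YCAY motifs and act in neurons. *Nova1* (ENSMUSG00000021047, chromosome 12, 47795504 to 47919762) had an RPKM of 11.86 in ES cells and 132.58 in forebrain, 11.2-fold higher in the latter (8.75 to 14.5, from 68 and 1133 reads). *Nova2* (ENSMUSG00000030411, chromosome 7, 19510698 to 19551031) had 5.69 and 35.35, and forebrain was 6.21-fold higher (4.51 to 8.76, from 42 and 389 reads). Both were the lowest of the 10 genes in ES cells, and in neither case did the intervals of the libraries overlap. *Nova1* exceeded *Nova2* by a factor of 2.08 in ES cells (1.4 to 3.14) and of 3.75 in forebrain (3.34 to 4.22). Even in forebrain, *Nova2* was at percentile 36.8 of protein-coding genes and *Nova1* at 50.9. With levels divided by the inferred total reads and 1 added, the log2 difference of *Nova2* was 0.63 in place of 2.44, under the 2-fold limit.

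The *Mbnl* genes encode zinc finger proteins related to Drosophila muscleblind, which favour splicing patterns of differentiated cells. *Mbnl1* (ENSMUSG00000027763, chromosome 3, 60277032 to 60433670) had an RPKM of 120.81 in ES cells and 621.32 in forebrain, a 5.14-fold difference (4.71 to 5.63). *Mbnl2* (ENSMUSG00000022139, chromosome 14, 120674891 to 120830919) had 194.61 and 419.15, a 2.15-fold difference (1.98 to 2.35). Both were higher in forebrain, and their order was exchanged. Per exon length, *Mbnl1* had 0.621 times the level of *Mbnl2* in ES cells (0.555 to 0.694) and 1.48 times its level in forebrain (1.41 to 1.56). *Mbnl3*, the remaining paralog, stayed the lowest, with 17.16 in ES cells and 76.77 in forebrain.

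*Mbnl* transcripts are themselves spliced in alternative ways, and a 54-base exon of these genes is a known target of the proteins they encode. In the annotation used here it was looked up in *Mbnl2* only, where 2 of 4 transcripts contain it. *Mbnl1* and *Mbnl3* were not searched for it. It is printed in the same manner as the exons of the *Ptbp* genes, from chr14:120794854-120795007 (plus strand), because the value of *Mbnl2* sums the transcripts with and without it.

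Mbnl2 exon: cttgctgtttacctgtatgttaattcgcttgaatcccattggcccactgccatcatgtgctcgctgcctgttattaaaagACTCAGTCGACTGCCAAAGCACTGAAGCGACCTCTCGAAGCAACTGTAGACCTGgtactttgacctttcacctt

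The 100 bases before this exon held TGCT 3 times and CGCT 2 times on the transcribed strand. These are a pair of the known YGCY motifs of *Mbnl* proteins, and they cannot overlap each other by more than a single letter. Of the 212365 exons, 48.6% had TGCT and 8.83% had CGCT in the same window, and at least as many copies were found before 3.89% and 0.772%.

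*Elavl2* and *Celf4* are members of larger families in which other genes differed more. *Elavl2* encodes HuB, a neuronal protein that binds AU-rich and U-rich RNA. *Elavl2* (ENSMUSG00000008489, chromosome 4, 90917454 to 91066675) had an RPKM of 186.7 in ES cells and 366.77 in forebrain. It was 1.96-fold higher in forebrain (1.82 to 2.13), just under the 2-fold limit, whereas *Mbnl2* was just above it. The intervals of both ratios include 2-fold, and with each library divided by the sum of its values *Elavl2* and *Rbfox2* also passed the limit. Its neuronal relatives *Elavl3* and *Elavl4* were low in ES cells, at 11.41 and 4.87. In forebrain these reached 272.96 and 376.32, and *Elavl4* was then 1.03 times *Elavl2* (0.97 to 1.09), which does not separate the 2 genes. The ubiquitous *Elavl1* (HuR) had 1186.65 and 1586.36, which was the highest level of the family in both libraries.

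*Celf4* encodes a CELF protein known from neurons. *Celf4* (ENSMUSG00000024268, chromosome 18, 25636133 to 25912484) had an RPKM of 92.83 in ES cells and 102.61 in forebrain. The ratio was 1.11 (0.957 to 1.28, from 304 and 501 reads), so a difference was not detectable at this depth. Without replicates, the interval sets no limit on the difference between the 2 sources. The log2 difference was 0.14 as deposited and 0.41 after division of each library by the sum of its values. Its relative *Celf2* had 11.25 and 196.53, so that *Celf2* was 0.121 times *Celf4* in ES cells (0.0967 to 0.151) and 1.92 times *Celf4* in forebrain (1.74 to 2.11). *Celf1*, which is widely expressed, had 1003.54 and 1156.87 and held 88.3% of the summed family RPKM in ES cells and 69.5% in forebrain. *Celf4* itself held 8.17% and 6.17%. *Celf6* was low, at 2.87 in ES cells (9 reads) and 19.34 in forebrain.

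*Rbfox2* encodes an RNA-binding protein that recognises UGCAUG and is expressed in many tissues, including ES cells. *Rbfox2* (ENSMUSG00000033565, chromosome 15, 76909420 to 77137483) had an RPKM of 545.62 in ES cells and 970.6 in forebrain. It was 1.78-fold higher in forebrain (1.71 to 1.85), less than 2-fold and with intervals of the levels that did not overlap. *Rbfox2* held 99.1% of the summed *Rbfox* RPKM in ES cells and 97.3% in forebrain. *Rbfox1* had 3.46 and 17.13, and *Rbfox3*, which encodes the neuronal antigen NeuN, had 1.68 and 10.13. Both rested on at most 12 reads in ES cells.

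*Srrm4* encodes the neural SR-related protein nSR100, which promotes the inclusion of neuronal microexons. *Srrm4* (ENSMUSG00000063919, chromosome 5, 116889281 to 117041826) had an RPKM of 42.52 in ES cells and 40.51 in forebrain. The ratio was 0.953 (0.815 to 1.12, from 275 and 391 reads), so a difference was not detectable at this depth. Its direction depended on scaling, with a log2 difference of -0.07 as deposited, 0.20 after division of each library by the sum of its values and 0.01 after division by inferred total reads. The related *Srrm3* had 1.14 in ES cells and 13.87 in forebrain, from 6 and 108 reads. *Srrm4* thus exceeded *Srrm3* by a factor of 37.3 in ES cells (16.9 to 102.0) and of 2.92 in forebrain (2.37 to 3.67).

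**Figure D2:**
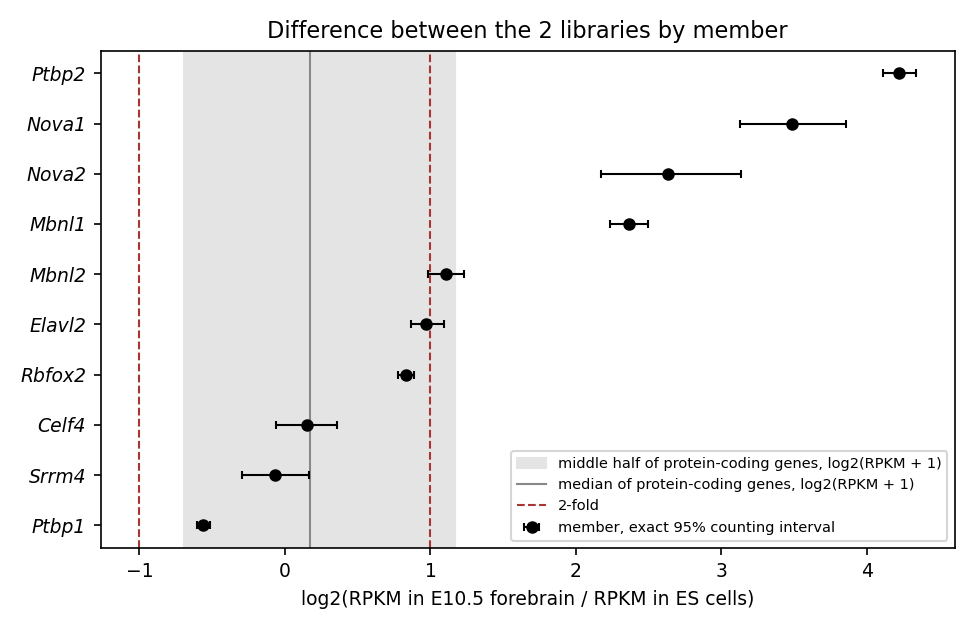
Log2 ratio of RPKM, forebrain over ES cells, for each of the 10 genes (points) with exact 95% counting intervals (bars). The grey band and line give the range between the quartiles and the median (0.17) of listed protein-coding genes on log2(RPKM + 1), the dashed lines 2-fold, and *Ptbp1* is the one gene whose whole interval lies below 0.

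Ordered by level, the 10 genes spanned a 383-fold range in ES cells and a 125-fold range in forebrain. In ES cells the order was *Ptbp1*, *Rbfox2*, *Ptbp2*, *Mbnl2*, *Elavl2*, *Mbnl1*, *Celf4*, *Srrm4*, *Nova1* and *Nova2*. In forebrain it was *Ptbp2*, *Ptbp1*, *Rbfox2*, *Mbnl1*, *Mbnl2*, *Elavl2*, *Nova1*, *Celf4*, *Srrm4* and *Nova2*. The intervals of neighbours overlapped for *Mbnl2* and *Elavl2* in ES cells and for *Srrm4* and *Nova2* in forebrain, and for no other neighbours.

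On log2(RPKM + 1), the scale used for counts of genes, 5 of the 10 genes (*Ptbp2*, *Nova1*, *Nova2*, *Mbnl1* and *Mbnl2*) were at least 2-fold higher in forebrain, and 0 were at least 2-fold higher in ES cells. Among all listed genes, 25.8% were at least 2-fold higher in forebrain and 23.3% in ES cells. Among the 19620 listed protein-coding genes these shares were 27.9% and 18.9%. The median log2 difference was 1.04 over the 10 genes and 0.17 over protein-coding genes, whose quartiles were -0.695 and 1.17. Of the 10 genes, 8 had the higher value in forebrain, with *Ptbp1* and *Srrm4* as the exceptions. With 1 library per group no test of these counts was made.

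The 17 paralogs and partners of the 10 genes were then listed. On the same scale 10 of them were at least 2-fold higher in forebrain and 0 in ES cells, with a median log2 difference of 2.02. The shares over protein-coding genes were 27.9% and 18.9%. Those with the largest differences were *Elavl4* (77.3-fold, 51.6 to 128.0), *Elavl3* (23.9-fold, 17.9 to 32.7), *Celf2* (17.5-fold, 14.5 to 21.3) and *Celf3* (14.6-fold, 9.83 to 22.5), all genes known from neurons. *Raver2*, which encodes a partner of PTB, had 70.75 in ES cells and 289.48 in forebrain, whereas *Raver1* had 448.86 and 555.76. The 7 genes within 2-fold were *Ptbp3*, *Raver1*, *Srrm1*, *Srrm2*, *Elavl1*, *Celf1* and *Celf5*, and all of these but *Celf5* are broadly expressed. Summed over each family, RPKM was 1.8-fold higher in forebrain for *Ptbp*, 1.81-fold for *Rbfox*, 1.87-fold for *Elavl*, 1.46-fold for *Celf*, 3.36-fold for *Mbnl* and 9.57-fold for *Nova*. The smallest of these differences was that of *Srrm3* and *Srrm4*, at 1.25-fold.

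**Figure D3:**
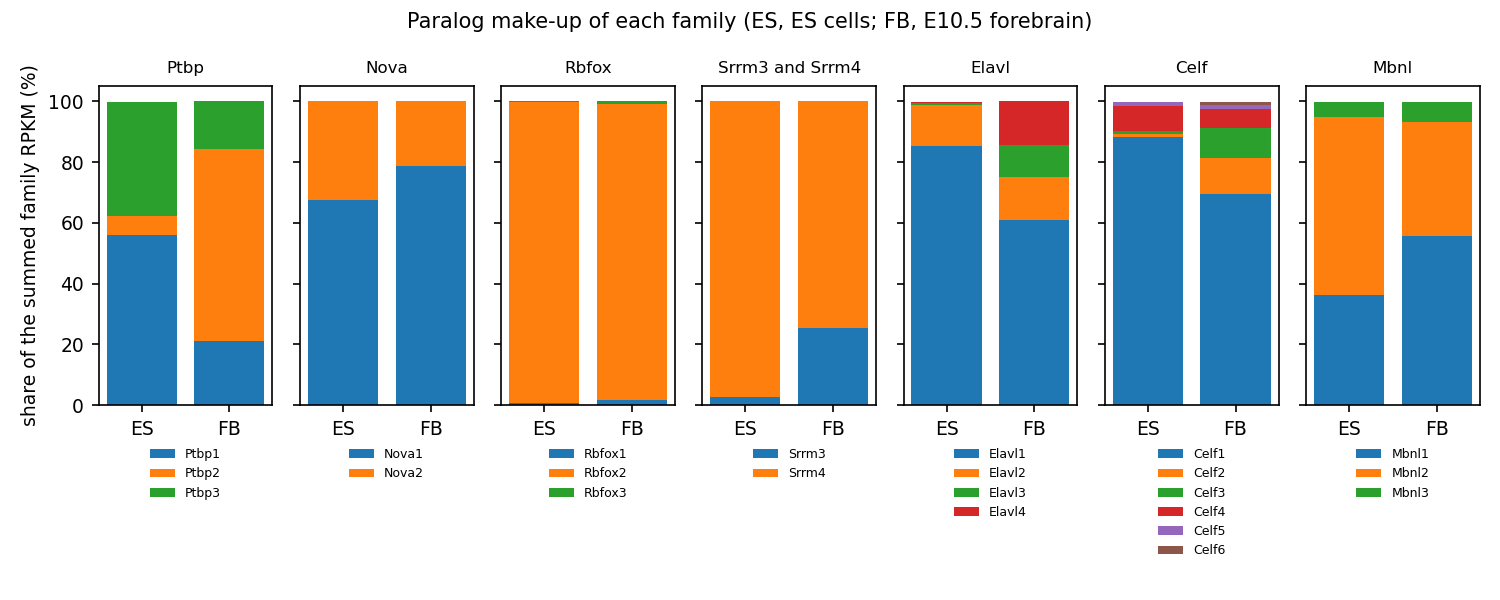
Share of the summed RPKM of each family (percent, stacked bars) held by each paralog in ES cells (ES) and forebrain (FB), 1 library each. *Ptbp2* went from 6.12% to 63.3% of its family, *Mbnl1* from 36.3% to 55.6%, and *Elavl1* from 85.4% to 61.0%, while *Rbfox2* made up 99.1% and 97.3%. The shares depend on the annotated exon length of each gene.

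General splicing factors were taken for comparison. Of 12 SR proteins and their relatives, which bind exonic enhancers, 0 differed by 2-fold or more, with log2 differences from -0.4 to 0.79. Of 22 hnRNP proteins, the class of RNA-binding proteins to which PTB belongs, 2 were at least 2-fold higher in forebrain. These were *Hnrnph3* (321.88 and 959.53) and *Hnrnph1* (2686.68 and 6204.16). Of 34 proteins of the core spliceosome, 1 differed by 2-fold or more, *Cdc5l*, which had 207.69 in ES cells and 65.33 in forebrain. The medians of the log2 difference were 0.06 for SR proteins, 0.49 for hnRNP proteins and -0.1 for the core spliceosome. Beside these counts, 27.9% of all protein-coding genes were at least 2-fold higher in forebrain and 18.9% in ES cells.

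A further list held 15 other splicing regulators, some known from particular cell types and some widely expressed (such as *Khdrbs1*, *Qk* and *Tial1*). Of these, 5 were at least 2-fold higher in forebrain and 2 in ES cells (median log2 difference 0.71). Over all protein-coding genes the shares were 27.9% and 18.9%, so these counts do not set the list apart. *Msi1*, a marker of neural progenitors, had 33.57 in ES cells and 861.6 in forebrain. *Khdrbs2* had 1.8 and 75.34, the former from 2 reads, and *Rbm24* was listed at 0 in ES cells and had 40.76 in forebrain. In the other direction, *Rbm47* had 83.12 and 10.99, and the epithelial regulator *Esrp2* had 174.13 and 53.69.

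**Figure D4:**
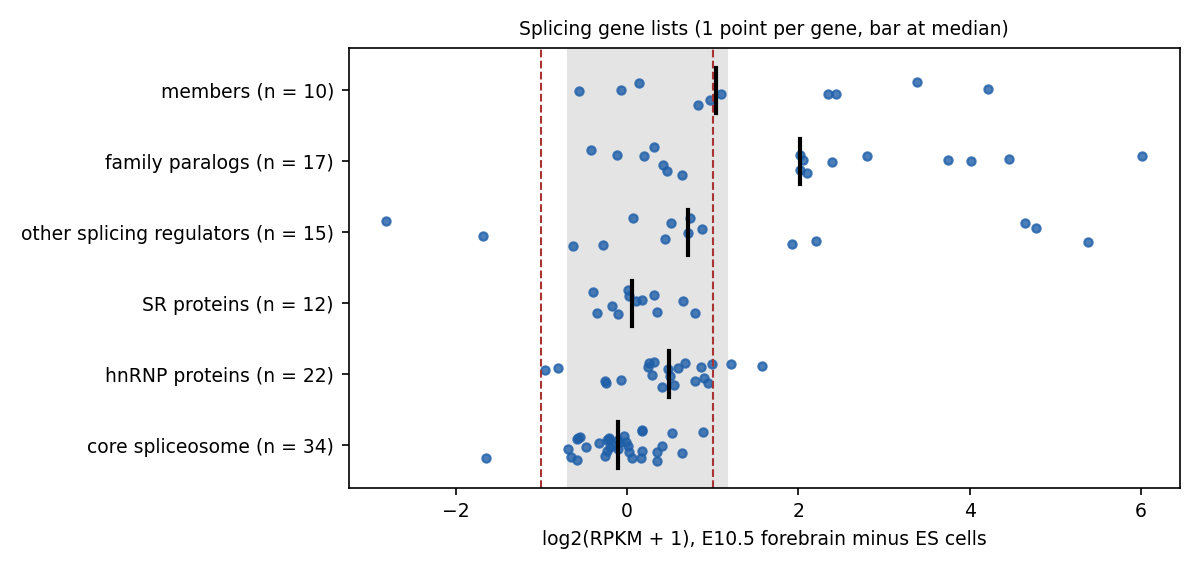
Difference in log2(RPKM + 1), forebrain minus ES cells, for the genes of 6 splicing lists (1 point per gene, bar at the median). The grey band is the range between the quartiles of listed protein-coding genes and the dashed lines mark 2-fold, and the medians run from -0.1 (core spliceosome) to 2.02 (paralogs).

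Genes known to act with *Ptbp1* or *Srrm4* were given a list of their own. *Rest*, the repressor of neuronal genes whose transcript is a known splicing target of *Srrm4*, had an RPKM of 2348.28 in ES cells and 716.13 in forebrain, 3.28-fold higher in ES cells (3.18 to 3.38). *Dlg4*, which encodes PSD-95 and has an exon repressed by PTB proteins, had 18.22 and 252.22, 13.8-fold higher in forebrain (10.9 to 18.0). The phosphatase genes *Ctdsp1* and *Ctdspl*, whose products assist REST, were 2.48-fold and 7.02-fold higher in forebrain, and *Ctdsp2* was 1.17-fold higher. The microRNA entries of the list rested on at most 6 reads and are not described.

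The labelled cell types were checked against their markers. All 10 ES cell markers were at least 2-fold higher in ES cells (summed RPKM 49030.4 and 2764.56), and all 10 forebrain markers were higher in forebrain (23.51 and 2291.83). *Sox2* gave 2602.06 of the forebrain sum of the ES cell markers. Of 8 neural progenitor markers, 7 were listed and 6 were at least 2-fold higher in forebrain. The sums over the 7 were 16235.1 and 35672.5, of which the exception, *Vim*, gave 15776.46 and 24191.27. Neuron markers were at least 2-fold higher in forebrain for 9 of 10 genes, with *Stmn2* as the exception, and their sums were 7796.04 and 6393.5. Markers of other tissues also differed, with 6 of 6 erythroid genes (336.35 and 675892), 5 of 6 endothelial genes (603.59 and 2134.96) and 6 of 6 mesenchymal genes (63.04 and 18114.2) at least 2-fold higher in forebrain. The endothelial exception, *Pecam1*, gave 551.14 and 316.51 of its sums. Muscle markers stayed low, with sums of 16.25 and 20.49, and *Ckm* was listed at 0 in forebrain and *Tnnt2* in ES cells. The part of these cells in the values of the splicing regulators was not tested.

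The depth behind these values was inferred, because the tables give no counts. Reads inferred on genes came to 42780129 for ES cells and to 59781310 for forebrain, and the 10 genes rested on 42 to 18182 reads per library. The libraries were strand-specific, but strand was apparently not used in counting. Listed genes with at least 90% of their exon bases inside exons of a gene on the other strand had a median of 1.12 times the RPKM of that gene in both libraries (184 genes in ES cells, 194 in forebrain). Reads of a gene and its antisense partner therefore cannot be told apart in these tables. *Nova2* shares 29.4% of its exon bases with the lincRNA *Gm17370* (3.68 and 27.18) and *Ptbp1* shares 9.2% with *Gm17134* (1454.38 and 953.36) and 5.29% with *BC005764* (173.17 and 735.56), all antisense. For *Srrm4* and *Mbnl2* the shared part was at most 1.88%.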

How the data were processed

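The authors depleted total RNA of ribosomal RNA, made strand-specific libraries, mapped single-end reads to NCBIM37 (mm9) through HTSstation and deposited RPKM per gene. The submitters' processing notes name Bowtie 0.12.7. The methods and the labels give different read lengths.

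All 29311 listed genes matched the annotation of NCBIM37 (GENCODE M1), after starts counted from 0 were shifted. RPKM times exonic length gave whole multiples of 1.221 in ES cells and 0.8191 in forebrain, with a product of 1.0. Of 5211 and 5302 low values from genes of up to 2500 bp of exon, 64.4% and 71.3% lay within 0.05 of a whole multiple (10.0% by chance). These steps were taken as 1 read per kb, so the values are not scaled to total reads. Reads were rounded to whole numbers. Intervals are exact Poisson (levels) or Clopper-Pearson (ratios), at 95%.

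Gene counts used log2(RPKM + 1), which understates the change of low genes, and a 2-fold limit. The text names all 10 genes, their paralogs that lead a family or differ by 2-fold, the genes of every other list with the largest differences (at most 4), genes acting with *Ptbp1* or *Srrm4* and, for each of the 10, the splicing gene nearest in level. *Esrp2* and *Rbm20* were named by the last part. The genes and lists were chosen with earlier results of these data known. Alternatives covered the pseudocount, scaling, fold limit, a minimum of 1 RPKM and gene length. Interval and step code was tested on simulated data. *Qk* has 2 identifiers, and the longer was used. Copies of transcripts were searched with blastn 2.17.0, and none of at least 90% identity over 50% of a transcript was found for the 10 genes. Figures were drawn with matplotlib 3.10.9, and values were computed in Python 3.11.15 with scipy 1.17.1, pandas 2.3.3 and numpy 2.4.6.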

Additional observations from a re-analysis of the deposited data

How the results depend on the processing

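The count of genes at least 2-fold higher in forebrain was 5, and ranged from 4 to 7 over the alternatives. It was 7 with values divided by their sum (30.3% of listed genes) and with a 1.5-fold limit (34.2%). It was 4 after division by inferred total reads (11.5%) and with a 4-fold limit (14.4%). It was also 4 without *Ptbp1* and *Nova2*, which share at least 5% of their exon bases with antisense genes (chosen after seeing the data). That last count is out of fewer than 10 genes, since both genes were left out and only *Nova2* had been counted. The count in ES cells was 0 under each of these alternatives. After division by total reads, *Nova2* fell to a log2 difference of 0.63, since a pseudocount of 1 is larger against these smaller values. This alternative therefore changes the weight of the pseudocount together with the scaling. Its count of 4, its share of 11.5% and its medians cannot be read as effects of scaling alone. Division by the sum moved the median of all listed genes by 0.25 on the log2 scale and the other scalings by at most 0.08 in either direction. The median log2 difference of the 10 genes became 1.31 with division by the sum. It became 0.88 after division by total reads, with the larger weight of the pseudocount included. The ratio of *Ptbp2* to *Ptbp1* was 0.0772 in ES cells and 2.13 in forebrain on inferred reads, and 0.0727 and 2 with the length of the longest coding transcript. In all, 28 of 34 alternatives for these results kept a value within its interval or moved a count or share by at most 1.5 times. For the median, the medians of the interval ends of the 10 genes served as its interval. Several of the 34 were bound to leave a result unchanged, so their number does not measure robustness. For example, all 10 genes had at least 1 RPKM, and a count of 0 stays 0 at a 4-fold limit. None of the alternatives turned the direction of a gene that differed by 2-fold. No paired analysis was possible because there is 1 library per group and no test.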

Other observations

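The pairs of levels in the 2 libraries were compared among 110 splicing genes (Euclidean distance on log2(RPKM + 1), 2 libraries only, so a description). *Rbfox2* lay nearest to the SR protein gene *Srsf4* (567.81 and 981.42, distance 0.06), and *Ptbp1* nearest to *Prpf31* of the core spliceosome (2470.43 and 1659.64, distance 0.25). *Nova1* lay nearest to *Celf3* (11.57 and 168.36, distance 0.34), *Srrm4* to *Snrpc* (33.74 and 38.39, distance 0.33), and *Elavl2* and *Mbnl2* to each other (distance 0.2). *Nova2* lay nearest to *Rbm20* (distance 0.83), *Mbnl1* to *Mbnl2* (0.89) and *Celf4* to *Esrp2* (1.29). *Ptbp2* had the most distant neighbour of the 10 genes, *Hnrnph3* at 2.25.

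*Stmn2*, listed here among neuron markers, had an RPKM of 6910.29 in ES cells and 1056.31 in forebrain. *Tubb3* had 795.19 and 3318.34, and *Dcx* 0.19 and 253.17.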
